A study of Homo sapiens with 6 samples.

Results

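The genes described here are 38 genes of the integrated stress response and the unfolded protein response of the endoplasmic reticulum (ER). They comprise 5 sensors and transcription factors, 15 genes known as targets of ATF4, 14 ER chaperones and folding enzymes and 4 genes of ER-associated degradation. Members were taken by gene symbol, from probe sets that the platform annotation ties to exactly 1 symbol. By that rule 37 of the 38 genes were measured, through 80 probe sets, among 19775 genes on the arrays. SYVN1, the ubiquitin ligase of ER-associated degradation, had 1 probe set shared with a second symbol and was not analysed here.

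Total RNA came from Caco-2 cells, an established human line from a colorectal adenocarcinoma whose cells can differentiate towards enterocytes. SDC1 was silenced with small interfering RNA (siRNA) in the cells of 3 arrays, and the cells of 3 more received a negative control siRNA, so no array is of cells without siRNA. SDC1 encodes syndecan-1, a cell-surface proteoglycan that carries heparan sulfate. How many siRNA sequences were used, and how long after transfection RNA was taken, is not stated in the sources used here. Nothing says whether replicates were separate cultures, so a p-value here covers the spread among these 6 arrays, which may be technical.

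The deposited values are log2 signals with the median of the 6 arrays set to 0 for every probe set. They give differences between arrays, not levels, and no gene's level can be set against another's. A rough brightness could still be read from the numerical step in which each value is stored, which placed 31 of the 37 genes at a log2 signal of 8 to 16 and the other 6 at 4 to 8, with 0 below 4. The 6 dimmer ones were CHAC1, SESN2, PPP1R15A, NUPR1, ATF6 and ERN1. In bulk RNA a change in the number of cells that express a gene and a change in RNA per cell cannot be told apart.

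The siRNA target was lower in every SDC1 siRNA array, with relative log2 signals of -0.50, -0.62 and -0.34, against 0.37, 0.35 and 0.35 with control siRNA (difference -0.84 ± 0.084, standard error; limma adjusted p = 0.0238 over all genes). The call was lost with a replicate block (limma adjusted p = 0.0929) and with any 1 array left out (0.0615 to 0.326), where the difference stayed between -0.92 and -0.78. Of 9 markers of intestinal epithelium, CDH1, EPCAM, KRT8 and KRT18 lay in the brightest class, VIL1 and CDX2 at 4 to 8, and KRT20, CDH17 and FABP1 below 4. Of 9 markers of fibroblasts, leukocytes and endothelium, COL1A1 alone lay in the brightest class. None of these 18 markers passed in limma (lowest adjusted p = 0.342).

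The unfolded protein response starts at 3 sensors in the ER membrane. PERK, the product of EIF2AK3, phosphorylates the translation factor eIF2, which slows protein synthesis in general and favours translation of ATF4. ATF4 then induces genes of amino acid supply, redox defence and, under lasting stress, cell death, and other eIF2 kinases feed into the same branch. IRE1, the product of ERN1, splices XBP1 mRNA, and ATF6 is cut in the Golgi to free a transcription factor. Both drive ER chaperones and the machinery that exports misfolded proteins for degradation. Secretory epithelium depends on this machinery, and the response is read mainly from target transcripts, since ATF4, ATF6 and XBP1 are controlled largely after transcription.

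Promoters of some members hold sequence elements known from these branches, and short stretches of them are given for that reason. RefSeq promoter windows (GRCh38.p14, 250 bases before to 50 after a gene's start) were matched by symbol for 34 of the 38 genes. They were searched on both strands for the ER stress response element (CCAAT, then 9 bases of any kind, then CCACG), for its second form (ATTGG, then 1 base of any kind, then CCACG), and for the C/EBP-ATF response element that ATF4 binds, TGATGNAA. The first and second forms share CCACG, and ATTGG is CCAAT read on the other strand. Capitals mark the motif, reverse complemented where it lies on the other strand of the gene, with 10 bases on each side in lower case.

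The first form was present in 0.0769% of all 35116 windows, in 6 of 17 chaperone and degradation genes with a window, in 0 of 12 ATF4 targets and, among the sensors, in XBP1. CANX is the member with this form whose stretch is not printed, and HSP90B1 holds a further site that is not printed either:
HSPA5 (chr9:125241381-125241419, minus strand): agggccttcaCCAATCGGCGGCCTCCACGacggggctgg
PDIA6 (chr2:10812843-10812881, minus strand): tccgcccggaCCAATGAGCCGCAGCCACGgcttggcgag
HSP90B1 (chr12:103930206-103930244, plus strand): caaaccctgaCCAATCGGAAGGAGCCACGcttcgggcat
CALR (chr19:12938374-12938412, plus strand): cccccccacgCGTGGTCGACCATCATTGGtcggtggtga
CRELD2 (chr22:49918544-49918582, plus strand): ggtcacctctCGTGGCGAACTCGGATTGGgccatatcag
XBP1 (chr22:28800593-28800631, minus strand): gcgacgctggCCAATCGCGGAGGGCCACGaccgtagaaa

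The second form was present in 0.0541% of all windows, in 3 chaperone and degradation genes and in 0 ATF4 targets. HYOU1 holds a further site that is not printed:
HERPUD1 (chr16:56932015-56932045, plus strand): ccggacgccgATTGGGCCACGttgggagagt
HYOU1 (chr11:119057264-119057294, minus strand): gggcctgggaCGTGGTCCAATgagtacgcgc
SDF2L1 (chr22:21642104-21642134, plus strand): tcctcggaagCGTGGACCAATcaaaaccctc

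The C/EBP-ATF response element was present in 3.62% of all windows, in 4 of 12 ATF4 targets and, among the chaperone and degradation genes, in HERPUD1 alone:
ASNS (chr7:97872459-97872486, minus strand): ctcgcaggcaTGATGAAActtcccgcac
CHAC1 (chr15:40953252-40953279, plus strand): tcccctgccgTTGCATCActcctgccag
CEBPG (chr19:33374061-33374088, plus strand): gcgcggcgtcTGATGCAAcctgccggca
ATF3 (chr1:212565206-212565233, plus strand): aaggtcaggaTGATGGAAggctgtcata

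These matches describe letters within the window and are not evidence of binding. A gene was counted where any of its windows held the motif (48 windows for 34 genes), while the percentages are over single windows.

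Across the 37 genes, SDC1 silencing came with small differences in every branch, and 0 passed an adjusted p of 0.05 in limma over all genes (background 0.0253%, 5 genes of 19775). Unadjusted, 1 of 37 genes (2.70%) had a limma p under 0.05, against a background of 10.6%. Groups did not overlap, with all 3 arrays of either group above all 3 of the other, in 5 members (13.5%; background 16.7%), ATF3 and HYOU1 on the higher side and SHMT2, EDEM1 and ATF4 on the lower. Differences below 0 made up 24 of 37 (64.9%; background 47.9%), and 20 to 25 when 1 array was left out. The median difference was -0.014 over the members and 0.0060 over all genes, and the median size of a difference was 0.043 in members and 0.079 in all genes. The backgrounds given so far were not matched for brightness: 31 of the 37 members lay in the brightest class, against 5977 of 19775 genes. For 36 of the 37 the 95% interval of the fit lay inside 1.5-fold either way, a share of 97.3%, and the same held for 96.9% of all genes and 98.6% of all genes in the brightest class.

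**Figure D1:**
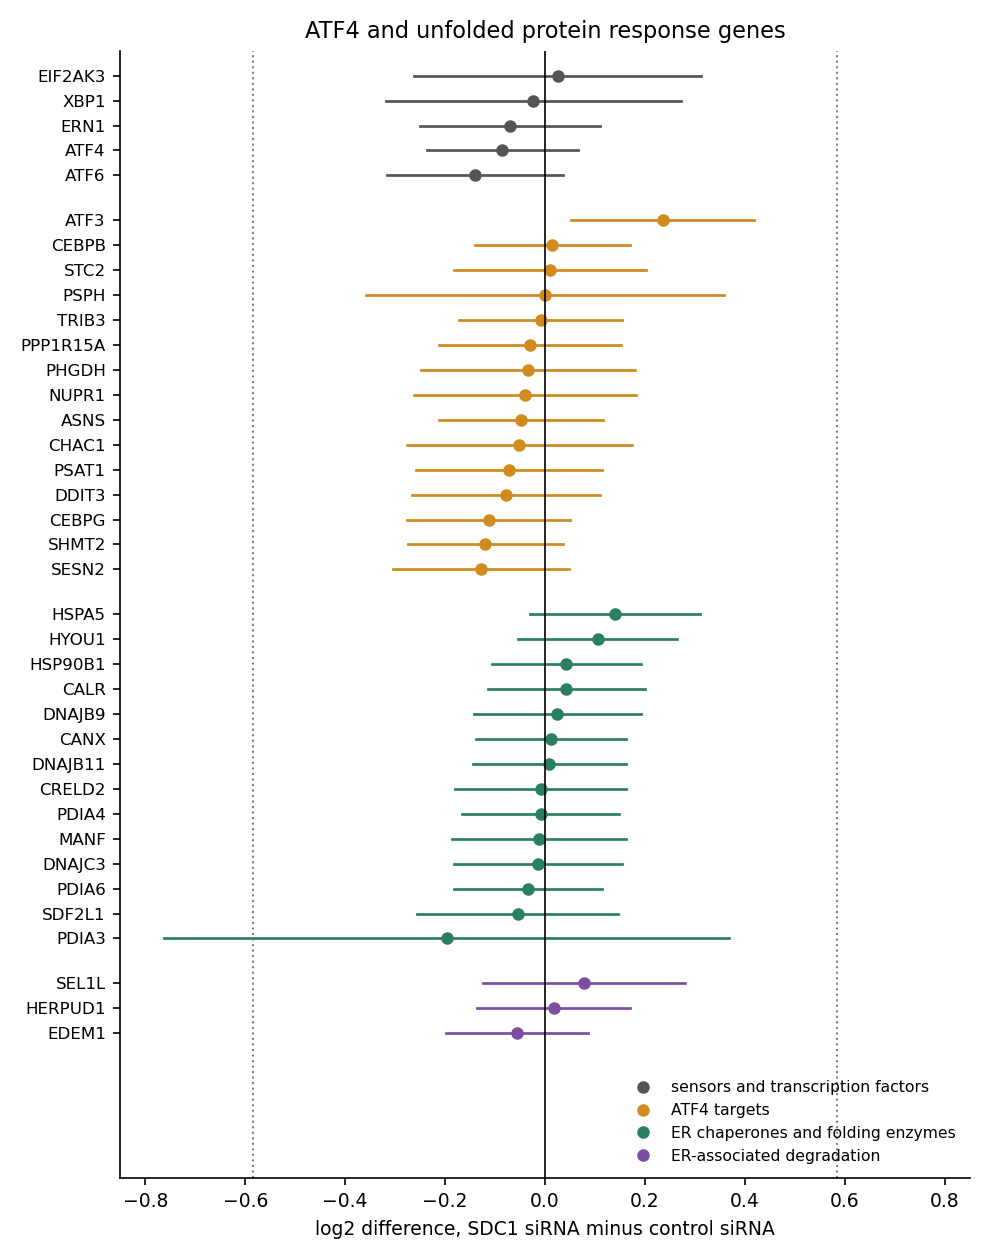
Log2 difference, SDC1 siRNA minus control siRNA (horizontal axis), for each of the 37 measured genes, grouped by role; points are fitted differences, bars are 95% intervals (3 arrays per group) and dotted lines mark 1.5-fold. Every interval except that of PDIA3 lies between the dotted lines, and ATF3 alone has an interval that leaves out 0.

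The sensors and their transcription factors did not pass. ATF4 itself, measured by 1 bright probe set, had relative log2 signals of -0.10, -0.056 and -0.0021 with SDC1 siRNA, against 0.030, 0.065 and 0.0021 with control siRNA. The groups were separate, but SDC1 siRNA replicate 3 and control replicate 3 nearly met. The difference was -0.085 ± 0.066 (standard error; 95% interval -0.24 to 0.066; limma adjusted p = 0.698). For ATF6 the mean over 4 probe sets was -0.096, -0.17 and 0.039 with SDC1 siRNA, against 0.0073, 0.085 and 0.10 with control siRNA. Replicate 3 of the SDC1 siRNA arrays lay within the control range, and the difference was -0.14 ± 0.077 (95% interval -0.32 to 0.037; limma adjusted p = 0.573). All 4 ATF6 probe sets were below 0, from -0.28 to -0.039.

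The other sensors varied more between arrays than between groups. ERN1, the gene of IRE1, was at -0.053, -0.13 and -0.013 with SDC1 siRNA and at 0.073, -0.12 and 0.054 with control siRNA, a difference of -0.069 ± 0.079. Its 3 probe sets did not point one way, with differences from -0.22 to 0.15. EIF2AK3, the gene of PERK, was at 0.10, -0.17 and 0.14 with SDC1 siRNA, against -0.10, 0.25 and -0.15 with control siRNA. XBP1 was at 0.037, -0.037 and 0.13 with SDC1 siRNA, against -0.075, 0.38 and -0.11 with control siRNA. In both genes control replicate 2 was the highest array and the groups overlapped, with differences of 0.025 ± 0.13 for EIF2AK3 and -0.023 ± 0.13 for XBP1. These probe sets measure total XBP1 transcript and were not used to tell its spliced form apart.

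Among the 15 ATF4 targets, 12 differences were below 0 (80.0%; background 47.9%) and 3 above, with a median of -0.040, and 0 passed over all genes. Without control replicate 1 the count was 9 below and 6 above, with TRIB3, PHGDH and NUPR1 then above 0 at 0.031, 0.012 and 0.0072. ATF3, a stress-induced transcription factor of the same family, had the largest difference of the 37 members with all 6 arrays in the fit. PDIA3 was larger in size without SDC1 siRNA replicate 3 (-0.52, against 0.20 for ATF3) and without control replicate 1 (-0.32, against 0.23 for ATF3). The relative log2 signal of ATF3 was 0.021, 0.13 and 0.18 with SDC1 siRNA, against -0.14, -0.021 and -0.22 with control siRNA. All 3 SDC1 siRNA arrays lay above all 3 control arrays. The difference was 0.24 ± 0.080 (standard error; 1.18-fold; 95% interval 0.052 to 0.42), with an unadjusted p = 0.0178 and an adjusted p = 0.355 in the limma fit over all genes. All 3 ATF3 probe sets gave like differences, of 0.24, 0.22 and 0.20, although they may share transcript sequence and count as 1 gene. Leaving out any 1 array kept the difference between 0.19 and 0.29.

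None of the other transcription factors of this branch passed in limma. DDIT3, the gene of the pro-apoptotic factor CHOP, was at -0.034, -0.033 and 0.033 with SDC1 siRNA, against 0.17, 0.12 and -0.083 with control siRNA, a difference of -0.078 ± 0.082 (95% interval -0.27 to 0.11; -0.15 to -0.028 with 1 array left out). The control arrays enclosed all 3 SDC1 siRNA arrays. CEBPG, a dimer partner of ATF4, had a difference of -0.11 ± 0.071 (probe sets -0.17 and -0.058), and CEBPB, a related factor, one of 0.014 ± 0.068. NUPR1, a stress-induced chromatin-associated protein, was at -0.040 ± 0.097. ATF3 thus differed in sign from ATF4 and DDIT3, but the gap between genes was not tested.

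Feedback and effector genes did not pass either. TRIB3, a pseudokinase that restrains ATF4, was at -0.057, -0.0015 and 0.013 with SDC1 siRNA and at 0.073, -0.093 and 0.0015 with control siRNA, with overlapping groups and a difference of -0.0089 ± 0.072. The dimmer TRIB3 probe set gave 0.091. PPP1R15A, the gene of the eIF2 phosphatase subunit GADD34, had a difference of -0.030 ± 0.079. CHAC1, which breaks down glutathione, had one of -0.051 ± 0.099. SESN2, a sestrin that restrains mTORC1, was at -0.19, -0.13 and 0.033 with SDC1 siRNA, against 0.035, 0.012 and 0.049 with control siRNA. SDC1 siRNA replicate 3 lay inside the control range, and the difference was -0.13 ± 0.077 (95% interval -0.31 to 0.048; limma adjusted p = 0.608). STC2, a secreted glycoprotein, had a difference of 0.011 ± 0.084, while its dimmer probe set gave -0.15.

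The 5 genes of amino acid and one-carbon synthesis had a median difference of -0.048 and a lowest limma adjusted p = 0.581. All 5 were below 0 with all arrays in the fit (background 47.9%), but PSPH was at -0.00025 and lay at 0.15 without control replicate 2, at 0.14 without SDC1 siRNA replicate 2 and at 0.026 after a further quantile normalization. PHGDH was at 0.015 without control replicate 3 and at 0.012 without control replicate 1. SHMT2, the mitochondrial serine hydroxymethyltransferase, was at -0.12, -0.035 and -0.030 with SDC1 siRNA, against 0.082, 0.00069 and 0.093 with control siRNA. Its groups were separate and all 3 of its probe sets were below 0, from -0.19 to -0.070, with a gene difference of -0.12 ± 0.068 (95% interval -0.27 to 0.035). PSAT1 and PHGDH, of the serine pathway, had differences of -0.073 ± 0.081 (-0.13 to -0.0039 with 1 array left out) and -0.035 ± 0.094. ASNS, asparagine synthetase, was at -0.048 ± 0.072. PSPH, the last enzyme of serine synthesis, was at 0.079, -0.24 and 0.26 with SDC1 siRNA, against -0.079, 0.33 and -0.15 with control siRNA. It spread over 0.57 between arrays, and its group means were nearly equal (difference -0.00025 ± 0.16).

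**Figure D2:**
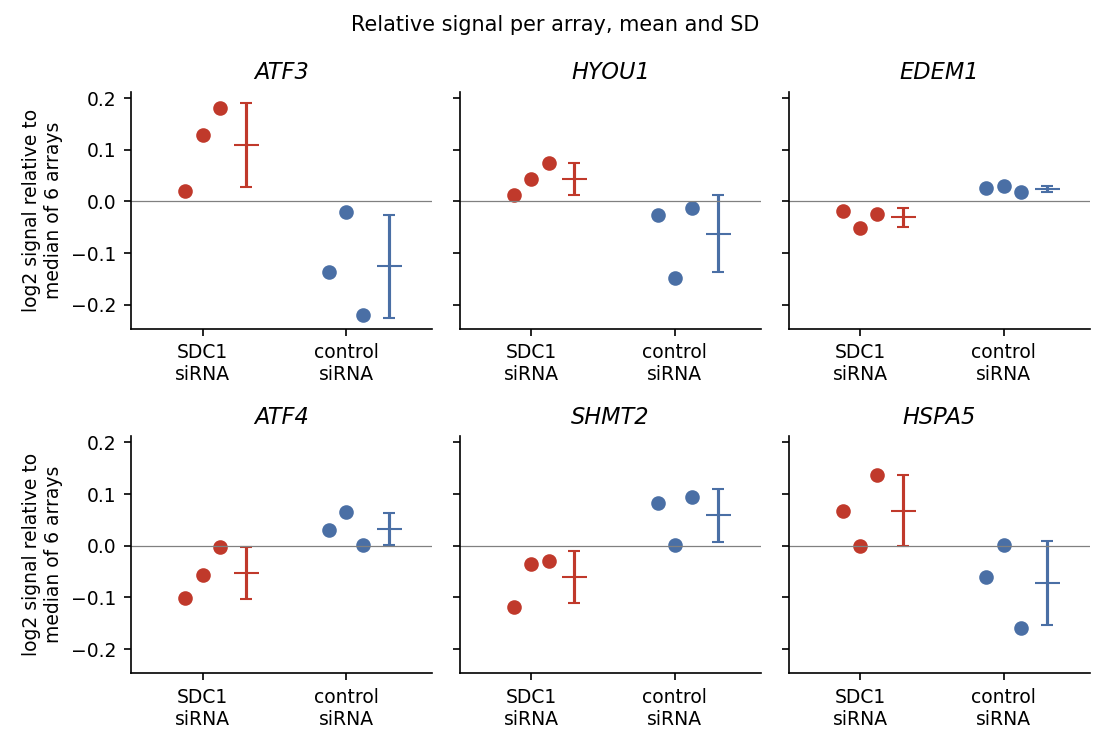
Relative log2 signal per array (vertical axis; 0 is the probe set's median over the 6 arrays) for the 5 members whose groups did not overlap and for HSPA5, with SDC1 siRNA at left and control siRNA at right; points are replicates 1 to 3 and bars are mean and SD (n = 3). The groups are separate in ATF3, HYOU1, EDEM1, ATF4 and SHMT2, and overlap in HSPA5.

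The ER chaperones and folding enzymes were balanced, with 7 differences above 0 and 7 below, a median of 0.00018, and 0 past the threshold. HSPA5, the gene of BiP, the chief chaperone of the ER and the usual reporter of ER stress, was at 0.067, -0.00052 and 0.14 with SDC1 siRNA, against -0.060, 0.0022 and -0.16 with control siRNA. Control replicate 2 lay just above SDC1 siRNA replicate 2, so the groups overlapped. The difference was 0.14 ± 0.075 (1.10-fold; 95% interval -0.031 to 0.31; limma adjusted p = 0.558), and its 2 probe sets gave 0.19 and 0.091. HYOU1, which exchanges nucleotide on BiP, was at 0.012, 0.043 and 0.075 with SDC1 siRNA, against -0.026, -0.15 and -0.012 with control siRNA. Its groups were separate, with a difference of 0.11 ± 0.070 (95% interval -0.054 to 0.26; limma adjusted p = 0.642).

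The J-domain partners of BiP had small differences, of 0.025 ± 0.073 for DNAJB9, 0.0088 ± 0.067 for DNAJB11 and -0.014 ± 0.074 for DNAJC3. HSP90B1, the HSP90 of the ER, was at 0.043 ± 0.065. The lectin chaperones that hold glycoproteins, CALR and CANX, had differences of 0.043 ± 0.069 and 0.012 ± 0.066. CRELD2, SDF2L1 and MANF, induced by ER stress in many cells, were at -0.0085 ± 0.075, -0.054 ± 0.088 and -0.012 ± 0.076.

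Of the disulfide isomerases, PDIA4 and PDIA6 had differences of -0.0091 ± 0.069 and -0.035 ± 0.065. PDIA3, which works with the lectin chaperones, was the least certain of all members. Its bright probe set was at -0.44, -0.41 and 0.54 with SDC1 siRNA, against -0.14, 0.14 and 0.28 with control siRNA. The SDC1 siRNA arrays were split, with replicate 3 the highest of the 6 arrays and the other two the lowest. The difference was -0.20 ± 0.25, with a 95% interval from -0.76 to 0.37. It was -0.52 without SDC1 siRNA replicate 3 and -0.027 without SDC1 siRNA replicate 1. The 2 dimmer PDIA3 probe sets did not show that spread and gave 0.064 ± 0.083 and -0.11 ± 0.098.

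The 3 measured genes of ER-associated degradation had a median of 0.017. HERPUD1, an ER membrane protein of this machinery, has letters of both the second form and the C/EBP-ATF response element in its window. Its relative log2 signal was 0.041, 0.033 and -0.048 with SDC1 siRNA, against 0.045, -0.033 and -0.036 with control siRNA, and the groups overlapped (difference 0.017 ± 0.067). EDEM1, which marks misfolded glycoproteins by trimming mannose, was at -0.017, -0.051 and -0.024 with SDC1 siRNA, against 0.026, 0.030 and 0.017 with control siRNA. Its groups were separate, with a difference of -0.055 ± 0.062 (limma adjusted p = 0.803). SEL1L, the adaptor of SYVN1, had a difference of 0.077 ± 0.088 (0.017 to 0.15 with 1 array left out), from its brightest probe set. Its 4 probe sets did not point one way, from -0.083 to 0.077, and the dimmer ones were all below 0.

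ATF4 targets averaged slightly lower than chaperone and degradation genes with SDC1 siRNA, in arrays whose groups overlapped. Averaged over 15 ATF4 targets, the relative log2 signal was -0.039, -0.050 and 0.041 with SDC1 siRNA, against 0.042, 0.026 and -0.022 with control siRNA. Over 17 chaperone and degradation genes it was -0.038, -0.028 and 0.070 with SDC1 siRNA, against -0.00017, 0.0094 and -0.020 with control siRNA. SDC1 siRNA replicate 3 was the highest array in the chaperone mean and the second highest in the ATF4 mean, and both means overlapped between groups. The ATF4 mean minus the chaperone mean was -0.0014, -0.021 and -0.030 with SDC1 siRNA, against 0.042, 0.016 and -0.0024 with control siRNA. These overlapped too, with a group mean of -0.017 ± 0.014 with SDC1 siRNA and 0.019 ± 0.022 with control siRNA (SD, n = 3 each), a difference of -0.036. PDIA3, which spread over 0.99 between arrays and lay at 0.54 in SDC1 siRNA replicate 3, is among the 17 chaperone and degradation genes. The overlap can therefore turn on PDIA3, and no means were taken without it. No test was made of the means, because the genes were chosen with earlier results of these data known.

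**Figure D3:**
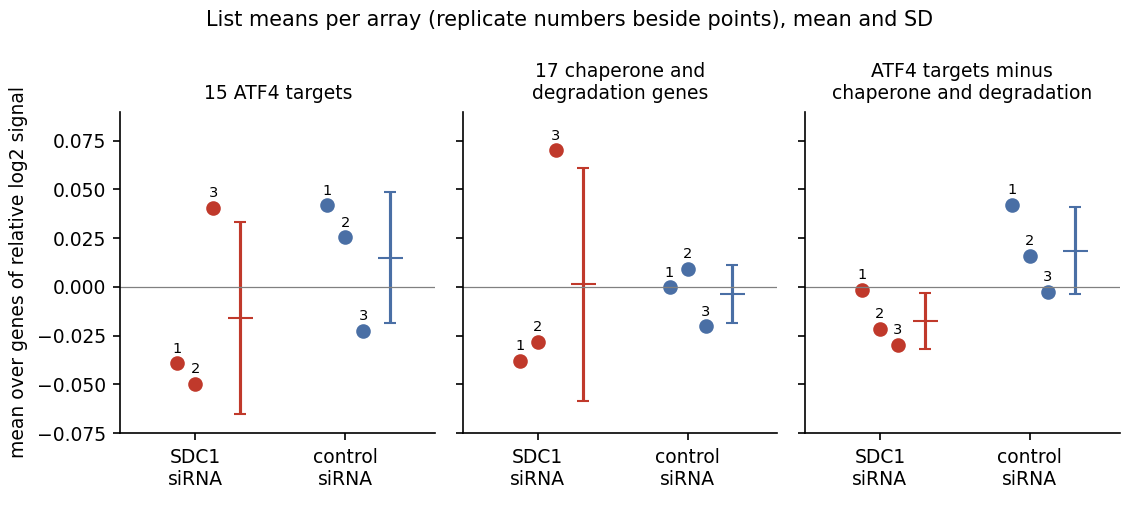
Mean relative log2 signal over 15 ATF4 targets (left), over 17 chaperone and degradation genes (middle) and the first minus the second (right), per array, with SDC1 siRNA left of control siRNA in each panel; digits are replicate numbers and bars are mean and SD (n = 3). The groups overlap in every panel, and SDC1 siRNA replicate 3 lies above the other two SDC1 siRNA arrays in both means.

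By promoter sequence, both sets held genes on either side of 0. The 10 measured genes with either ER stress response element had differences from -0.054 to 0.14, 6 above 0 and 4 below, with a median of 0.014 and a lowest limma adjusted p = 0.558. The 5 with a C/EBP-ATF response element ran from -0.11 (CEBPG) to 0.24 (ATF3), 2 above 0 and 3 below. HERPUD1 is in both counts. ASNS and CHAC1, whose stretches are printed above beside that of ATF3, were at -0.048 and -0.051.

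Probe sets of one gene often disagreed in sign when differences were this small. Of 25 members with more than 1 probe set, 13 had all of them on one side of 0 and 12 did not. In limma over all 54613 probe sets, 0 of the members' 80 passed (background 0%) and the lowest adjusted p was 0.553. At an unadjusted p under 0.05 there were 2, both of ATF3, which is 2.50% of the 80 against a background of 8.33%.

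**Figure D4:**
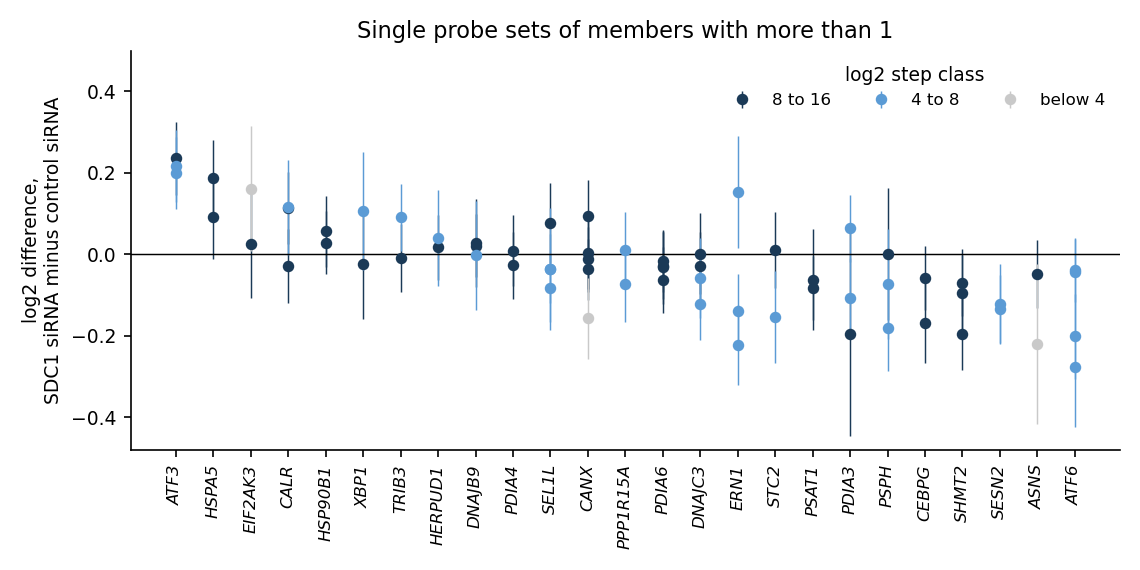
Log2 difference, SDC1 siRNA minus control siRNA (vertical axis), of each single probe set for the 25 members with more than 1, coloured by brightness class; points are fitted differences and bars are standard errors. The 3 ATF3 probe sets lie together at 0.20 to 0.24, and the ERN1 probe sets lie on both sides of 0.

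Neighbouring genes of the same pathways, in 8 lists with 112 of 121 genes measured, had 0 past an adjusted p of 0.05 in limma (background 0.0253%). At an unadjusted p under 0.05 there were 3 higher (background 5.43%) and 6 lower (background 5.19%). The median over the 8 lists was -0.0013. Groups did not overlap in 16 of these genes, 6 higher (background 8.26%) and 10 lower (background 8.47%).

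Further ATF4 targets (16 of 19 measured) had a median of -0.045, with 9 below 0 and 7 above. VLDLR, a lipoprotein receptor that ER stress can induce, was at -0.16, -0.23 and -0.26 with SDC1 siRNA, against 0.16, 0.29 and 0.22 with control siRNA. Its groups were well separated, and the difference was -0.44 ± 0.070 (0.738-fold; 95% interval -0.60 to -0.28), with a limma adjusted p = 0.103. CEBPA, a C/EBP factor, was at -0.26 ± 0.091 (limma adjusted p = 0.374). Of 10 amino acid transporters, 5 were above 0 and 5 below. SLC7A11, the cystine importer, was at -0.081, -0.18 and -0.027 with SDC1 siRNA, against 0.052, 0.026 and 0.098 with control siRNA. The groups were separate, with a difference of -0.15 ± 0.070 (limma adjusted p = 0.490), while SLC43A1, a neutral amino acid transporter, was at 0.12 ± 0.11. The 11 measured tRNA synthetases had a median of -0.00097, with EPRS1 at -0.13 ± 0.078 and GARS1 at -0.065 ± 0.075.

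On the translation side, 13 eIF2 kinases, eIF2 subunits and regulators had a median of 0.0099. EIF2S2, the beta subunit of eIF2, was at -0.14, -0.082 and -0.054 with SDC1 siRNA, against 0.14, 0.054 and 0.11 with control siRNA. Its groups were separate, with a difference of -0.19 ± 0.066 (limma adjusted p = 0.357). EIF2AK4, the kinase GCN2 that senses uncharged tRNA, was at -0.13 ± 0.091.

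The remaining ER lists had medians near 0. In the translocation list (15 genes, median 0.012) SSR3, a subunit of the translocon-associated complex, was at -0.25 ± 0.078 and SEC63, a J-domain protein of the translocon, at 0.24 ± 0.089. Both had separate groups and neither passed (limma adjusted p = 0.322 and 0.392), and SEC63 was at -0.054 when _x_at and _s_at probe sets were left out. In the folding and glycan list (18 genes, median -0.0075) MOGS, the first glucosidase of glycan trimming, was at 0.20 ± 0.084 and DNAJC1 at -0.16 ± 0.068. The further degradation genes (17, median -0.012) held HERPUD2 at 0.25 ± 0.090 and EDEM2 at -0.17 ± 0.092. The list of ATF6 and XBP1 processing (12 genes, median -0.024) held CREB3L3, an intestinal and hepatic relative of ATF6 whose signal lay below 4, at 0.20 ± 0.088, and BAX, a pro-apoptotic protein, at -0.16 ± 0.12.

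Stress genes outside the ER, not all of them chaperones, had 7 of 9 differences above 0 in the cytosolic heat shock list (median 0.061). In the mitochondrial list 5 of 8 were above 0 (median 0.054), and 0 passed the threshold in either list. Over all genes, 10300 of 19775 differences were above 0. HSPA1A, HSPA1B and HSPA8 of the heat shock list were not measured, and neither list was counted again with 1 array left out. HSPB1, a small heat shock protein, was at 0.00074, 0.11 and 0.19 with SDC1 siRNA, against -0.00074, -0.12 and -0.063 with control siRNA. The groups were separate, though replicate 1 of each nearly met, with a difference of 0.16 ± 0.076 (limma adjusted p = 0.504). HSP90AA1, the inducible cytosolic HSP90, was at 0.14 ± 0.069, also with separate groups. In the mitochondrial list the protease subunit CLPP and the chaperonin HSPD1 were at 0.15 ± 0.079 and 0.12 ± 0.070. Groups did not overlap in 3 of the 9 heat shock genes, all higher (background 8.26%, not matched for brightness). They overlapped in all 8 mitochondrial genes.

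**Figure D5:**
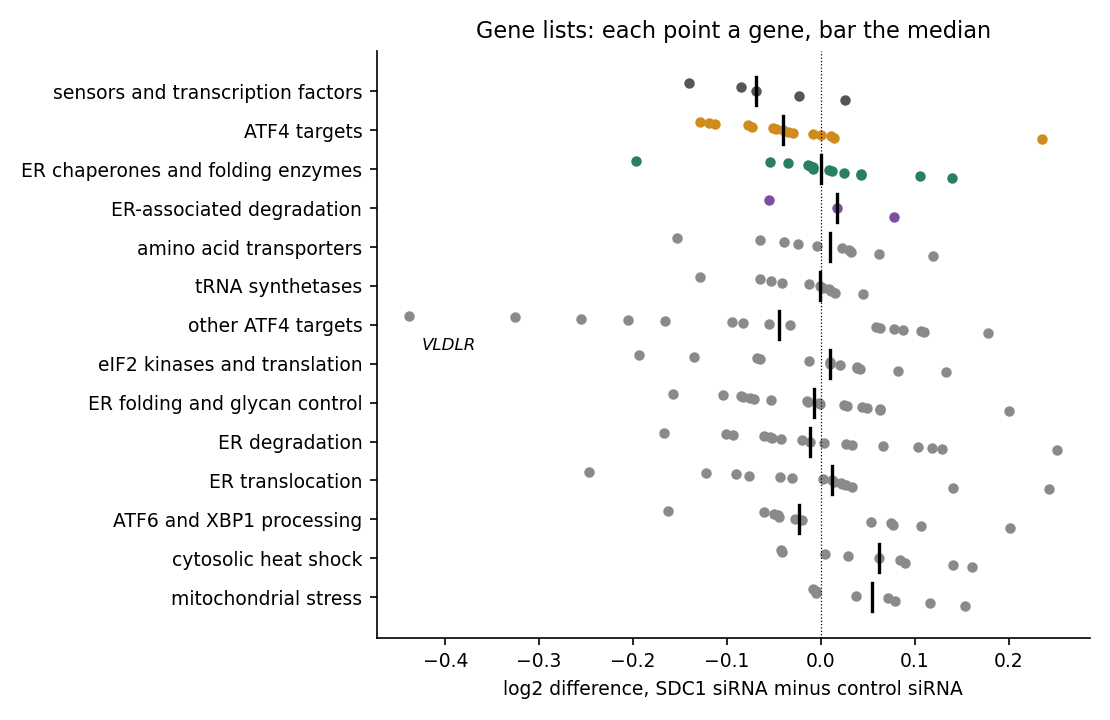
Log2 difference, SDC1 siRNA minus control siRNA (horizontal axis), for every measured gene of the 4 role groups (coloured) and of 8 pathway and 2 other stress lists (grey); each point is a gene and each bar the median of its list. Medians lie between -0.069 and 0.061, and VLDLR at -0.44 is the lowest point.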

How the data were processed

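The authors deposited log2 signals, for which the submitters' processing notes name RMA; its version is not given in the sources used here. All 54675 probe sets have a median of 0 over the 6 arrays (tolerance 1e-06), so the deposited log2 values are centred, a step the sources do not state. Stored numbers keep steps that differ between log2 signals of 8 to 16, 4 to 8 and below 4, which gave the brightness classes.

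Probe sets with 1 symbol (41091) gave 19775 genes, each taken as the average of the probe sets that lay in the brightest class found for it. Symbols were updated through RefSeq. Groups were compared over all 6 arrays with limma 3.58.1 in R 4.3.3 (group as the only term) and Benjamini-Hochberg adjustment over all genes at 0.05; the fit was tested on simulated data. The members, lists and gene rule were chosen with earlier results of these data known. Named were SDC1, all members and the 2 genes of lowest p in each further list. No 2 arrays shared more than 52 exactly equal gene values. The number of arrays limits precision, and the sources used here give no scan date, so no batch was tested. As alternatives the fit was run with a replicate block, with each array left out in turn, with other probe set rules, dim genes left out, further normalization, array weights and a robust fit.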

Additional observations from a re-analysis of the deposited data

How the results depend on the processing

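0 of the 37 members passed 0.05 in any of the 14 alternatives of the gene fit, and the lowest adjusted p was 0.201 (ATF3 with array weights). The median over ATF4 targets lay between -0.080 and -0.024 and that over chaperone and degradation genes between -0.010 and 0.019 when 1 array was left out. Replicate numbers gave no sign of pairing: same-numbered deviations from the group means correlated at -0.0082, -0.26 and -0.11, and unlike-numbered ones at -0.15 to 0.21. With 3 arrays per group, these values cannot tell whether the arrays were paired. With the replicate block 0 genes passed and SDC1 was at -0.84 (adjusted p = 0.0929), and no member's call changed. Genes called were 5 in the main analysis, 11 in brighter classes, 9 after quantile normalization again, 39 with array weights, 3 when every probe set was averaged, and 0 to 1 with 1 array left out. SDC1 then lay between -0.92 and -0.78, with an adjusted p of 0.0615 to 0.326. Single probe sets called were 0, but 2 in brighter classes and 3 with array weights.

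Of the members, 18 kept their sign in every alternative and 19 did not, none of these over 0.077 in size. Array weights gave PSPH 0.028, CEBPB -0.0099, STC2 -0.042 and XBP1 0.042. Quantile normalization gave PSPH 0.026 and XBP1 0.0056. The mean of all probe sets gave TRIB3 0.041, STC2 -0.072, CANX -0.022, SEL1L -0.019 and XBP1 0.041. Without _x_at and _s_at probe sets CANX was -0.037, DNAJC3 0.0017 and SEC63 -0.054, on other probe sets. The cause of the other changes was not tested. With 1 array left out the ranges that crossed 0 were TRIB3 -0.052 to 0.031, CHAC1 -0.13 to 0.013, PHGDH -0.13 to 0.015, PSPH -0.12 to 0.15, CEBPB -0.021 to 0.047, PPP1R15A -0.080 to 0.016, NUPR1 -0.12 to 0.037, STC2 -0.058 to 0.056, CANX -0.011 to 0.041, PDIA4 -0.043 to 0.019, DNAJB9 -0.019 to 0.060, DNAJC3 -0.050 to 0.040, DNAJB11 -0.016 to 0.033, SDF2L1 -0.11 to 0.0098, CRELD2 -0.042 to 0.048, MANF -0.042 to 0.046, XBP1 -0.11 to 0.13, EIF2AK3 -0.048 to 0.15 and SLC43A1 -0.0018 to 0.19. Members that kept their sign with 1 array left out but moved by over 1.5 times were PDIA3 -0.52 to -0.027, DDIT3 -0.15 to -0.028, PSAT1 -0.13 to -0.0039, ASNS -0.091 to -0.013, SESN2 -0.19 to -0.081, CEBPG -0.15 to -0.075, ERN1 -0.13 to -0.034, ATF6 -0.20 to -0.092, PDIA6 -0.057 to -0.015, HSP90B1 0.023 to 0.062, CALR 0.0013 to 0.074, HYOU1 0.062 to 0.13, HERPUD1 0.00084 to 0.045 and SEL1L 0.017 to 0.15. Of these, SEL1L did change sign when every probe set was averaged (-0.019).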

Other observations

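The 3 widest-spread members after PDIA3 had the same 2 arrays at the top, 1 from each group. PSPH, XBP1 and EIF2AK3 were all highest in control replicate 2, at 0.33, 0.38 and 0.25, and all had SDC1 siRNA replicate 3 second, at 0.26, 0.13 and 0.14. The 2 further PSPH probe sets (0.25 and 0.23) and the second XBP1 probe set (0.28) were also highest in control replicate 2, while the second EIF2AK3 probe set, which lay below 4, was lowest there at -0.22. Over all 37 members, SDC1 siRNA replicates 1, 2 and 3 held the highest value in 1, 1 and 10, and control replicates 1, 2 and 3 in 8, 10 and 7. The lowest value was in SDC1 siRNA replicates 1, 2 and 3 in 9, 10 and 2 members, and in control replicates 1, 2 and 3 in 2, 5 and 9.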
